A study of Mus musculus with 20 samples.

Results

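GABAergic interneurons are the local inhibitory neurons of the brain. They make the transmitter GABA from glutamate, load it into synaptic vesicles, and restrain the excitatory neurons around them. In the cortex they fall into classes known by the calcium-binding protein parvalbumin, by the peptides somatostatin, VIP and NPY, or by secreted reelin, and transcription factors of the Lhx and Dlx families direct their formation in the embryo. Here 10 genes of these cells were followed by name through a brain RNA-seq series: Gad1, Gad2, Slc32a1, Lhx6, Pvalb, Sst, Vip, Npy, Dlx1 and Reln. All 10 were among the 23845 genes of the table and among the 16063 genes tested. The set is not exclusive to interneurons, since Gad1, Gad2 and Slc32a1 serve every GABA neuron, including striatal projection neurons and cerebellar Purkinje cells.

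The series compared brains of mice labelled strain C57/Bl6J on a normal diet, in 20 libraries. The lines were J1 lf/lf (3 libraries), J2 lf/lf (3), J17a (3), J17b (2), J27a (3) and J27b (3), set against Wild type (3). The study's stated purpose was to describe its single-isoform knockout mice and their exon usage. JNK1 and JNK2 are stress-activated kinases encoded by Mapk8 and Mapk9, and each transcript takes either exon 7a or its alternative 7b. The labels do not spell out the line codes, do not say whether the form in a code was kept or removed, and give neither the age of the mice nor the alleles behind lf/lf. Whether replicates are separate animals is not stated, so the p-values cover no more than the spread between the samples at hand.

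The 10 genes lie on 6 chromosomes, and in the GENCODE annotation of mm10 each is protein coding. Gad1 (chr2:70553072-70602014, plus strand), Gad2 (chr2:22622205-22693874, plus), Slc32a1 (chr2:158610767-158615748, plus), Dlx1 (chr2:71528113-71533981, plus) and Lhx6 (chr2:36081953-36105408, minus) share chromosome 2. Pvalb is at chr15:78191114-78206400 (minus), Sst at chr16:23889573-23890958 (minus), Vip at chr10:5639218-5647617 (plus), Npy at chr6:49822710-49829507 (plus) and Reln at chr5:21884454-22344702 (minus). Promoter windows of 300 bases, from 250 before to 50 after a gene start, were found for all 10 genes in the RefSeq table of GRCm38.p6, 13 windows in all. JNK phosphorylates Jun, a subunit of AP-1, and the CRE is the DNA element bound by the CREB and ATF factors, some of which JNK phosphorylates as well. The windows that held an AP-1 or CRE match are shown for that reason, with the matching letters in capitals and each sequence running 5′ to 3′ on the strand of its gene.
Sst, chr16:23890795-23891094, minus: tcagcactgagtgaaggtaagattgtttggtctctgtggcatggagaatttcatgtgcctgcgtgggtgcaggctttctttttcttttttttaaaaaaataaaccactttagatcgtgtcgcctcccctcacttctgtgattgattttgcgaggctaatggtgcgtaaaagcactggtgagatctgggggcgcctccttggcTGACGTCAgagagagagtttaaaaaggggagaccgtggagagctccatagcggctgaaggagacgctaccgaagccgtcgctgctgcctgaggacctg
Vip, chr10:5638968-5639267, plus: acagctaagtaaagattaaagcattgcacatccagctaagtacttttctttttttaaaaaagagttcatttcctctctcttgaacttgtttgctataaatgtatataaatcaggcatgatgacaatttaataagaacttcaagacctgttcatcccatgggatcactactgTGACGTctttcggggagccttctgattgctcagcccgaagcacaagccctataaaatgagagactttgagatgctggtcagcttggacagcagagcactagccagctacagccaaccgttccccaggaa
Lhx6, chr2:36105359-36105658, minus: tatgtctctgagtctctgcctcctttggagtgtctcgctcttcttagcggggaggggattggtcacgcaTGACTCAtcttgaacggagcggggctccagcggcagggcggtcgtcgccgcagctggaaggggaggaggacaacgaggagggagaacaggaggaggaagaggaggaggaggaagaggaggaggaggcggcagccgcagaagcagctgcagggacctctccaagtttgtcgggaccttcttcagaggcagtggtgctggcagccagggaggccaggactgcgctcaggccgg
The CRE letters TGACGTCA began 48 bases before the RefSeq start of Sst. That start and these letters lie inside the GENCODE gene given above, whose start is farther upstream. The letters were found in no window of the other 9 genes, and 1.79% of 32851 mouse windows of the same length held them. The shorter core TGACGT, which lies inside that CRE, also stood 79 bases before the Vip start and was in 7.51% of windows. The AP-1 letters TGACTCA lay 181 bases before 1 of the Lhx6 starts and were in 5.2% of windows. TATAAA was in windows of Gad1, Lhx6 and Vip, against 13.6% of all windows. Both strands were searched, the motifs were chosen with earlier results known, and a match is only a match of letters.

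The libraries held 21395041 to 33828755 estimated counts. Wild type replicate 3 stood apart from the rest, with a median Spearman correlation to the other libraries of 0.982, against at least 0.990 for every other library. It was also low for forebrain glutamatergic neuron markers, with a summed level of 2464 CPM against 4081 and 4015 CPM in the other Wild type libraries. Results against Wild type are therefore also given without it. The gene Rn45s split the libraries in another way. It was at 3066 to 6718 CPM in every library of J2 lf/lf, in those of J1 lf/lf and of Wild type, and in J17a replicate 1 (6560 CPM). In the other J17a libraries and in all of J17b, J27a and J27b it was at 17321 to 54698 CPM. This split largely follows the lines, so the fits cannot separate the 2, and its part in the line differences was not tested. As a check of the labels, Mapk8 was at 74.6 and 79.2 CPM in J17b, against 102 to 140 CPM in all other libraries, and Mapk9 at 177, 171 and 58.1 CPM in J2 lf/lf, against 274 to 360 CPM. Each of 8 general neuron markers was tested, and their summed level ran from 5812 to 6771 CPM. CPM is the count relative to the library total after scaling with TMM factors.

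The level of the 10 genes per transcript length spanned almost 2 orders of magnitude. In TPM (a transcript share corrected for length), Sst was the highest at a median of 1181 over the 20 libraries. Gad1 followed at 404 TPM, Pvalb at 400.3, Npy at 256, Slc32a1 at 196 and Gad2 at 160.0 TPM. Vip (40.9 TPM), Reln (33.7), Dlx1 (14.1) and Lhx6 (13.8) made up the lower group. Several neighbours could not be ordered. Gad1 exceeded Pvalb in 8 of 20 libraries and Dlx1 exceeded Lhx6 in 10 of 20. Sst over Gad1 and Gad2 over Vip were the steps at which the libraries did not overlap, while Vip exceeded Reln in 16 of 20 and Slc32a1 exceeded Gad2 in 18 of 20.

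**Figure D1:**
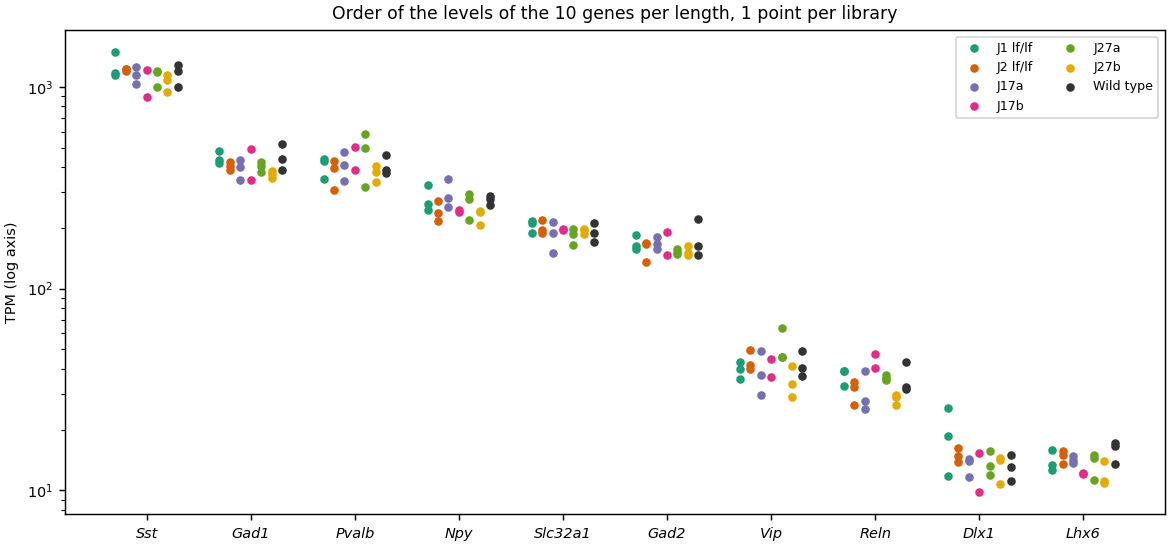
TPM of the 10 genes on a log axis, 1 point per library, coloured by group and sorted by the median. Sst lies above all other genes in every library, and Vip, Reln, Dlx1 and Lhx6 lie below Gad2 in every library.

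None of the 10 genes passed the test between any line and Wild type, between the 7a and 7b lines, or between an isoform line and the lf/lf line of its gene. Across 12 such comparisons, 0 of 120 gene and comparison pairs passed an adjusted p of 0.05 (edgeR quasi-likelihood test, Benjamini-Hochberg over all tested genes), and the lowest adjusted p was 0.558. At an unadjusted p under 0.05 there were 14 of the 120 pairs (11.7%), against 5.71% of pairs over all tested genes. Of the 14, 6 were among the 60 against Wild type. The comparisons share libraries, so the pairs are not independent. DESeq2 and limma also called 0 of the 120. They called few genes of any kind, with 1 to 31 of 16063 genes per comparison for DESeq2 and 0 to 4 for limma. The differences were small. Against Wild type the log2 fold changes ran from -0.37 to 0.53, and the 95% intervals of all 60 pairs lay within 2-fold and those of 51 within 1.5-fold. In bulk tissue, fewer cells of a type and less RNA per cell cannot be told apart.

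Few genes of the whole table passed either. Against Wild type, 0.0125% of tested genes were called in J1 lf/lf, 0.00623% in J2 lf/lf, 0% in J17a, 0.0249% in J17b, 0% in J27a and 0% in J27b. The unadjusted shares of all genes were 5.04% in J1 lf/lf, 7.94% in J2 lf/lf, 4.39% in J17a, 5.85% in J17b, 4.84% in J27a and 6.94% in J27b. Set beside these shares, 1 of the 10 interneuron genes had an unadjusted p under 0.05 in J1 lf/lf (Dlx1), 1 in J17b (Lhx6) and 4 in J27b (Gad1, Lhx6, Npy and Reln), and 0 in J2 lf/lf, J17a and J27a. All 4 in J27b were lower than in Wild type, and the median of the 10 genes there was -0.21 on the log2 scale, against -0.0015 for all tested genes. Without Wild type replicate 3, 2 of the 4 remained under 0.05, Lhx6 at -0.49 and Npy at -0.35, while Gad1 stood at -0.17 (adjusted p = 0.769) and Reln at -0.19 (adjusted p = 0.816) in that edgeR fit. The counts of interneuron genes at an unadjusted p under 0.05 were then 1 in J1 lf/lf (no longer Dlx1), 0 in J2 lf/lf and 1 in J17a. They were 2 in J17b, 1 in J27a and 2 in J27b, with 0 called. Of all 16064 genes, that fit called 10 in J1 lf/lf, 1 in J2 lf/lf, 0 in J17a, 54 in J17b, 0 in J27a and 0 in J27b. Its unadjusted shares of all genes are not given, so these unadjusted counts have no share beside them.

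**Figure D2:**
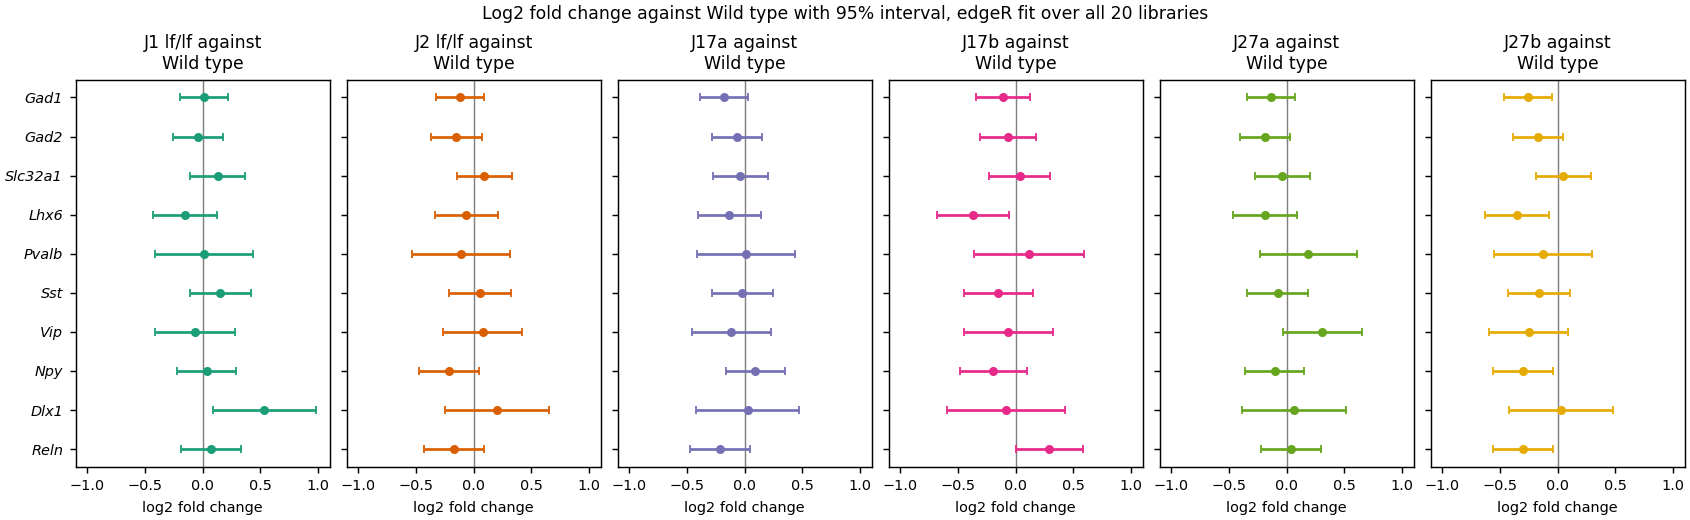
Log2 fold change of each gene in each line against Wild type, with the 95% interval of the edgeR fit. The intervals of all 60 pairs lie within 2-fold, and 0 passed the adjusted threshold.

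The comparisons between lines gave the same count of 0 called. J17a against J17b called 0% of all genes (unadjusted 5.9%) and had 1 interneuron gene at an unadjusted p under 0.05. J27a against J27b called 0% (unadjusted 5.79%) and had 2. J17a against J1 lf/lf called 0.00623% (unadjusted 6.54%) and had 2, and J17b against J1 lf/lf called 0.0311% (unadjusted 4.22%) and had 2. J27a against J2 lf/lf called 0.00623% (unadjusted 6.36%) and had 0, and J27b against J2 lf/lf called 0.00623% (unadjusted 4.75%) and had 1. In that last comparison all 10 log2 fold changes were below 0, with a median of -0.13 against -0.0016 for all genes. The 30 other interneuron genes were above 0 in 14 cases and below in 16 (median -0.04). Markers of striatal projection neurons, which are GABA neurons too, were below 0 in 10 of 10 (median -0.37), and summed to 601 to 851 CPM in J27b and 687 to 1150.25 CPM in J2 lf/lf; their part in the values was not tested. A single test of any difference among the 7 groups called 0.0872% of genes (unadjusted 6.71%). Reln (adjusted p = 0.406, rank 213 of 16063) and Npy (adjusted p = 0.728) were under an unadjusted 0.05 in it, and 0 of the 10 interneuron genes were called. DESeq2 called 1, Reln, in this test (adjusted p = 0.0268), but it called 231 of all 16063 genes there.

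Gad1 and Gad2 encode the 2 glutamate decarboxylases that make GABA, Gad67 and Gad65. Gad1 was at 552, 612 and 555 CPM in J1 lf/lf, 552, 510 and 509 in J2 lf/lf, 556, 506 and 444.4 in J17a, 449 and 608 in J17b, 546, 521 and 490 in J27a, 484, 496 and 453 in J27b, and 499, 579 and 631 in Wild type. The J27b libraries all lay below those of Wild type, and in the other lines the ranges overlapped with Wild type. The share of all tested genes without overlap was not computed, for this or any later comparison. With groups of 2 or 3 libraries, a lack of overlap is a description only. Gad1 averaged 478 ± 22.0 CPM in J27b and 569.6 ± 66.5 CPM in Wild type (SD, n = 3 each). That is 83.8% of Wild type (log2 fold change -0.25, SE 0.10, edgeR adjusted p = 0.713). Purkinje cells express Gad1 as well, and the 7 Purkinje cell markers summed to 619 to 717 CPM in J27b and 829 to 1159.5 CPM in Wild type. Calb1, 1 of the 7, was also among the 30 other interneuron genes, so the sum is not specific to Purkinje cells. The part of Purkinje cells in the Gad1 values was not tested. The J27b libraries also lay below all J2 lf/lf libraries, at -0.13 (adjusted p = 1). Gad1os, an antisense gene, overlaps Gad1, and no source used here states whether counting was strand-aware. Gad1os held 0 to 11 estimated counts per library, and the estimated counts of Gad1 were fractional in 0 of 20 libraries.

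Gad2 was at 375, 428 and 381 CPM in J1 lf/lf, 396, 381 and 324 in J2 lf/lf, 388, 414 and 365 in J17a, 347 and 429 in J17b, 353, 368 and 349 in J27a, 358, 383 and 343 in J27b, and 345, 389 and 487 in Wild type. Every line overlapped Wild type, whose own replicate 3 was the highest of the 20 libraries. Its log2 fold changes against Wild type ran from -0.19 in J27a to -0.04 in J1 lf/lf.

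Slc32a1, the vesicular transporter that loads GABA into synaptic vesicles, had a coefficient of variation of 9.86% over the libraries, against 9.93% for Gad2 and 10.2% for Gad1, and these were the steadiest of the 10. It ran from 164 CPM in J17a replicate 2 to 241 CPM in J2 lf/lf replicate 1, and Wild type held 209, 238 and 176 CPM. Its level did not follow that of the enzymes in every library. The TPM ratio of Gad1 to Slc32a1 had a median of 2.05 and was 2.64 in J17a replicate 2 and 3.07 in Wild type replicate 3, the highest values. The ratio of Gad2 to Slc32a1 was highest in the same libraries, at 1.19 and 1.31 against a median of 0.799.

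**Figure D3:**
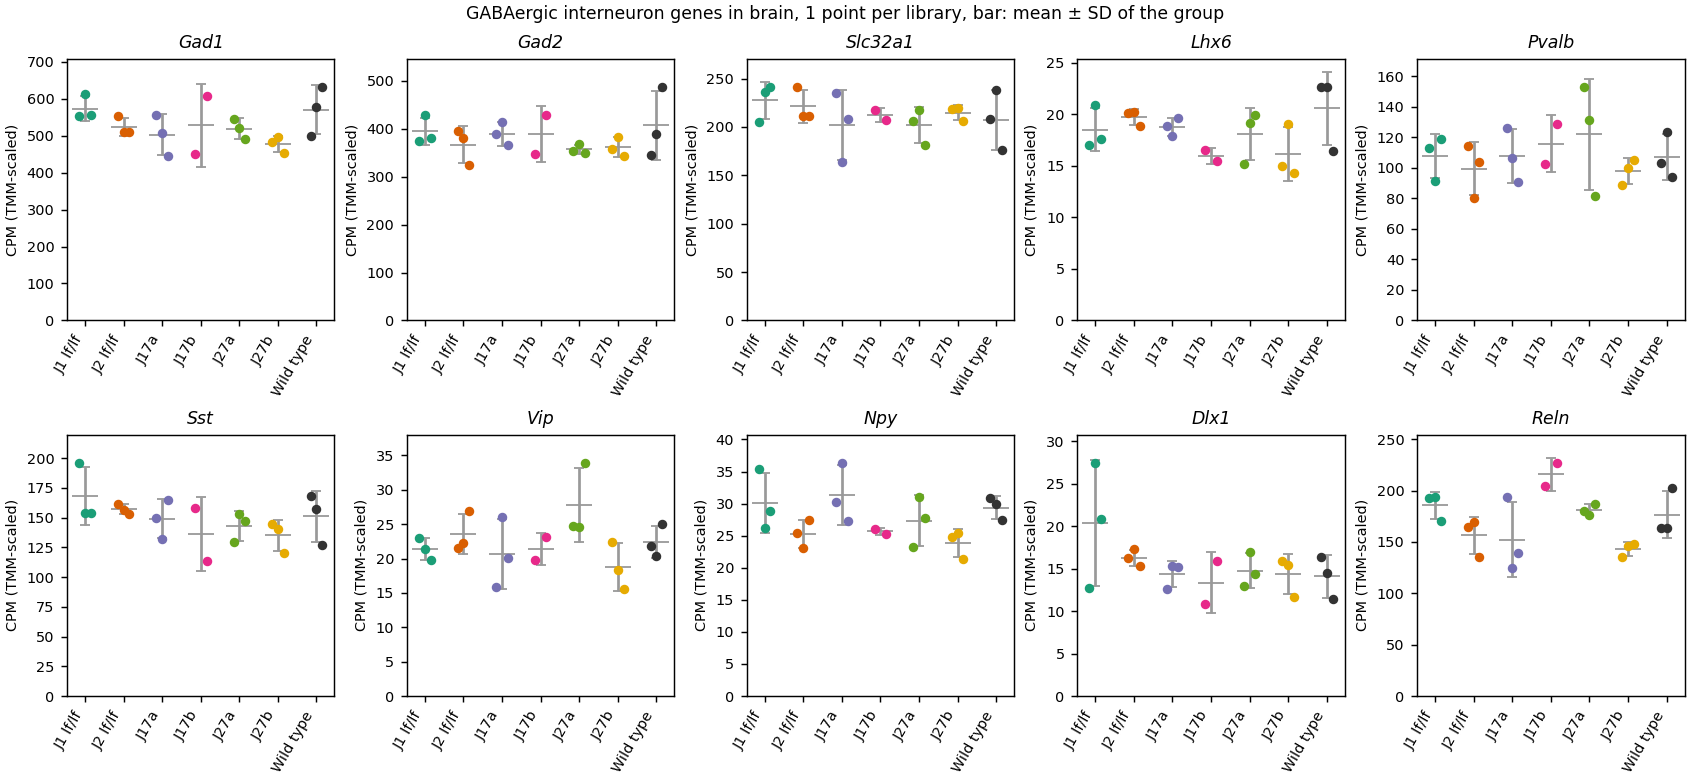
CPM of the 10 genes by group, 1 point per library, with the mean and SD of the group as bars. J1 lf/lf replicate 2 stands out for Dlx1 at 27.5 CPM, and the J17b libraries of Reln (204 and 227 CPM) lie above all others.

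Lhx6 is the LIM homeobox factor that interneurons of the medial ganglionic eminence, the source of the parvalbumin and somatostatin classes, require to mature. It was at 17.02, 20.9 and 17.6 CPM in J1 lf/lf, 20.1, 20.2 and 18.8 in J2 lf/lf, 18.8, 17.9 and 19.6 in J17a, 16.49 and 15.41 in J17b, 15.2, 19.1 and 19.9 in J27a, 14.9, 19.1 and 14.3 in J27b, and 22.6, 22.6 and 16.45 in Wild type. J17b and J27b were low, but the lowest Wild type library overlapped both. Lhx6 averaged 15.95 ± 0.767 CPM in J17b (SD, n = 2) and 20.6 ± 3.56 CPM in Wild type (SD, n = 3), a log2 fold change of -0.37 (SE 0.15, edgeR adjusted p = 0.785). In J27b it averaged 16.1 ± 2.59 CPM (SD, n = 3), a log2 fold change against Wild type of -0.35 (SE 0.13, adjusted p = 0.713). Without Wild type replicate 3 the values were -0.50 (adjusted p = 0.119) and -0.49 (adjusted p = 0.372). J27b against J2 lf/lf gave a log2 fold change of -0.29 (adjusted p = 1), with overlapping libraries. J17b lay below J1 lf/lf without overlap at -0.22 (adjusted p = 1.000), and J17a above J17b without overlap at 0.23 (adjusted p = 0.882).

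Dlx1, a homeobox factor of forebrain interneuron precursors, was the most variable of the 10, with a coefficient of variation of 23.8%. It was at 12.7, 27.5 and 20.85 CPM in J1 lf/lf, 16.2, 17.3 and 15.3 in J2 lf/lf, 12.6, 15.3 and 15.2 in J17a, 10.8 and 15.9 in J17b, 12.9, 17.002 and 14.4 in J27a, 15.95, 15.5 and 11.7 in J27b, and 16.4, 14.5 and 11.4 in Wild type. Replicates 2 and 3 of J1 lf/lf were the highest of the series and replicate 1 was within the range of the other groups. The log2 fold change of J1 lf/lf against Wild type was 0.53 (SE 0.21, edgeR adjusted p = 0.944), that of J17a against J1 lf/lf -0.51 (adjusted p = 0.705) and that of J17b against J1 lf/lf -0.61 (adjusted p = 1.000). Without Wild type replicate 3 the first was 0.41 (adjusted p = 0.628). With replicates 2 and 3 of J1 lf/lf left out the values were -0.16, 0.18 and 0.07, but those libraries were chosen as the highest of the series, so the direction follows from the choice, and the 1 library left was assumed to vary like the other groups.

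Dlx1 stays active in the granule and periglomerular interneurons of the olfactory bulb. Markers of the bulb were high together with Dlx1 in J1 lf/lf replicates 2 and 3. The 7 bulb granule and periglomerular cell markers summed to 305, 435 and 363 CPM in J1 lf/lf. In the other groups the sum ran from 280.4 to 362 CPM. The 362 CPM was in J17a replicate 1, whose Dlx1 was at 12.6 CPM. Replicates 2 and 3 of J1 lf/lf had list medians of 0.57 and 0.37 relative to the median library on the log2 scale. The 6 mitral and tufted cell markers, which name the projection neurons of the bulb, summed to 18.7, 111 and 63.6 CPM in J1 lf/lf, against 15.1 to 30.5 CPM elsewhere. No gene of either list was at 0 in all libraries. Among them the mitral gene Doc2g was at 3.24, 21.1 and 14.5 CPM in J1 lf/lf and between 1.64 and 4.54 CPM in all other libraries. The part of bulb tissue in the Dlx1 values was not tested. Dlx1 also shares its locus with the antisense gene Dlx1as (chr2:71516454-71537891, minus strand). Its estimated counts were fractional in 20 of 20 libraries while the sum of both genes was whole in 20 of 20 within 0.01, so their reads were divided by estimate. Dlx1 held 46.2 to 63.3% of the sum, and with both genes summed J1 lf/lf stood at 0.41 against Wild type (adjusted p = 0.911).

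**Figure D4:**
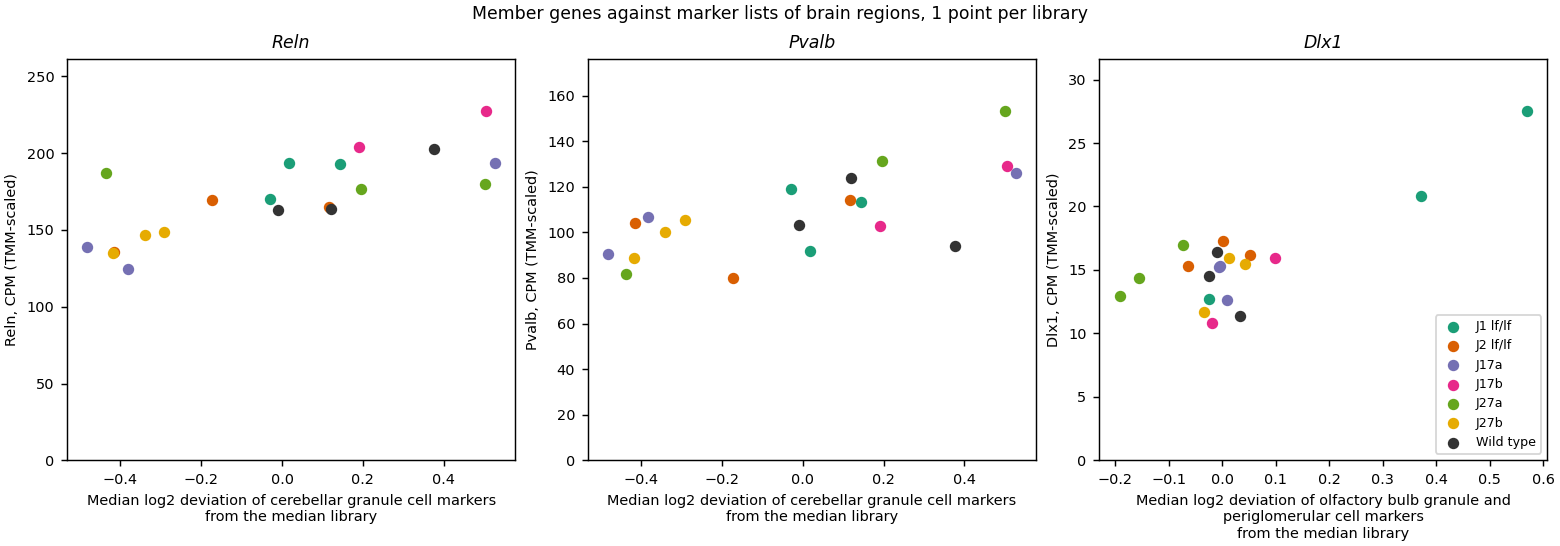
Reln and Pvalb against the median log2 deviation of 8 cerebellar granule cell markers, and Dlx1 against that of 7 olfactory bulb granule and periglomerular cell markers, 1 point per library. J1 lf/lf replicates 2 and 3 lie apart at 27.5 and 20.85 CPM of Dlx1, and the J27a library that is low in cerebellar markers holds 187 CPM of Reln.

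Pvalb encodes parvalbumin, the calcium buffer of fast-spiking interneurons, which Purkinje cells also make. It spanned 80.1 CPM (J2 lf/lf replicate 2) to 153 CPM (J27a replicate 1). The J27a libraries alone ran over most of that range, at 153, 131 and 81.9 CPM, and their cerebellar granule markers summed to 1250, 979 and 641 CPM in the same order. The 2 orders also matched in J17a and J17b, but not in J1 lf/lf, J2 lf/lf or Wild type, and in J27b replicate 1 was lowest for both. Wild type replicate 3 had the most granule markers of its group (1132 CPM) and the least Pvalb (94.2 CPM). Cerebellar content as a part of the Pvalb values was not tested. No comparison put Pvalb under an unadjusted p of 0.05, and its log2 fold changes against Wild type lay between -0.13 and 0.19. The TPM ratio of Sst to Pvalb ran from 1.72 in J27a replicate 1 to 3.92 in J2 lf/lf replicate 2.

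Sst encodes the inhibitory peptide somatostatin, made by interneurons that contact dendrites. Its lowest library was J17b replicate 2, at 114 CPM, and its highest J1 lf/lf replicate 1, at 196 CPM. The other J17b library held 158 CPM, the other J1 lf/lf libraries 154 and 154 CPM, and Wild type 168, 158 and 127 CPM. J17b against J1 lf/lf gave a log2 fold change of -0.30 (SE 0.14, edgeR adjusted p = 1.000) with overlapping libraries, and -0.09 without J17b replicate 2. J27b libraries (144, 141 and 120 CPM) lay below all J2 lf/lf libraries (162, 157 and 153 CPM), at -0.22 (adjusted p = 1).

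Vip encodes vasoactive intestinal peptide, the marker of interneurons that inhibit other interneurons. It was at 23.0, 21.3 and 19.8 CPM in J1 lf/lf, 21.6, 22.2 and 26.9 in J2 lf/lf, 15.9, 26.01 and 20.1 in J17a, 19.8 and 23.1 in J17b, 24.75, 24.6 and 33.9 in J27a, 22.4, 18.3 and 15.5 in J27b, and 21.9, 20.3 and 25.0 in Wild type. All J27a libraries were above all J27b libraries. Vip averaged 27.8 ± 5.35 CPM in J27a, against 18.7 ± 3.45 CPM in J27b (SD, n = 3 each), a log2 fold change of 0.56 (SE 0.17, 95% interval 0.22 to 0.91, edgeR adjusted p = 0.558). Without J27a replicate 3 it was 0.39.

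Npy encodes neuropeptide Y, carried by several interneuron classes and by neurons of the arcuate nucleus. It was at 35.3, 26.2 and 28.8 CPM in J1 lf/lf, 25.45, 23.0 and 27.38 in J2 lf/lf, 30.3, 36.4 and 27.3 in J17a, 26.1 and 25.3 in J17b, 23.2, 31.1 and 27.7 in J27a, 24.8, 25.4 and 21.4 in J27b, and 30.8, 29.9 and 27.39 in Wild type. In CPM the J2 lf/lf, J17b and J27b libraries all lay below those of Wild type, J2 lf/lf by the narrowest margin. In TPM J2 lf/lf replicate 3 (272.9) exceeded Wild type replicate 3 (258.8). Npy averaged 23.9 ± 2.16 CPM in J27b and 29.4 ± 1.78 CPM in Wild type (SD, n = 3 each), a log2 fold change of -0.30 (SE 0.12, edgeR adjusted p = 0.715). The values for J2 lf/lf and J17b against Wild type were -0.22 (edgeR adjusted p = 0.650) and -0.19 (adjusted p = 0.932). Without Wild type replicate 3 these were -0.26 (adjusted p = 0.999) and -0.24 (adjusted p = 0.505). J17a lay above J17b without overlap at 0.28 (adjusted p = 0.849), and J17b below J1 lf/lf without overlap in CPM at -0.23 (adjusted p = 1.000). In TPM J17b replicate 1 (245.06) exceeded J1 lf/lf replicate 2 (244.62).

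Reln encodes reelin, the secreted protein that guides neuronal layering in development and is made in the adult by layer 1 and other cortical interneurons and by cerebellar granule cells. It was at 193, 194 and 170.3 CPM in J1 lf/lf, 165, 169 and 136 in J2 lf/lf, 194, 125 and 139 in J17a, 204 and 227 in J17b, 180.3, 177 and 187 in J27a, 135, 146 and 148 in J27b, and 163, 164 and 203 in Wild type. In CPM both J17b libraries were above all other 18, but in TPM Wild type replicate 3 (43.37) exceeded J17b replicate 1 (40.35). The J27b libraries lay below all Wild type libraries and below all J27a libraries.

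In the JNK1 lines Reln was lower in 7a than in 7b, and in the JNK2 lines it was higher in 7a than in 7b. It averaged 152 ± 36.4 CPM in J17a (SD, n = 3) and 216 ± 16.2 CPM in J17b (SD, n = 2). J17a stood at 70.6% of J17b (log2 fold change -0.50, SE 0.14, 95% interval -0.79 to -0.21, edgeR adjusted p = 0.587). J27a libraries averaged 181 ± 5.31 CPM, against 143 ± 7.11 CPM for J27b (SD, n = 3 each). That is a log2 fold change of 0.34 (SE 0.13, 95% interval 0.08 to 0.60, edgeR adjusted p = 0.792). Neither passed the threshold over all genes in the fit of all 20 libraries. With only its own groups in the fit, J27a against J27b had an adjusted p of 0.00543, but J17a against J17b had one of 0.996. The JNK1 difference was -0.71 (adjusted p = 0.0464) without J17a replicate 1, whose Reln was the highest of its group, and -0.37 (adjusted p = 0.850) without J17a replicate 2. J17a replicate 1 was also the library of its group that was low in Rn45s. Over all alternatives the adjusted p ran from 0.0464 to 1 for J17a against J17b and from 0.00543 to 1 for J27a against J27b.

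The difference between the 2 contrasts was tested directly, as a comparison added with the data in view. For Reln, J17a minus J17b was 0.84 log2 units below J27a minus J27b (log2 difference -0.84, SE 0.19, 95% interval -1.23 to -0.45, edgeR adjusted p = 0.321). For Vip the same difference was -0.62 (SE 0.25, adjusted p = 0.646). These were 2 of the 10 genes at an unadjusted p under 0.05, against 6.7% of all genes, and 0 were called, against 0.00623% of all genes. For the other 8 genes the adjusted p was 0.874 or more.

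**Figure D5:**
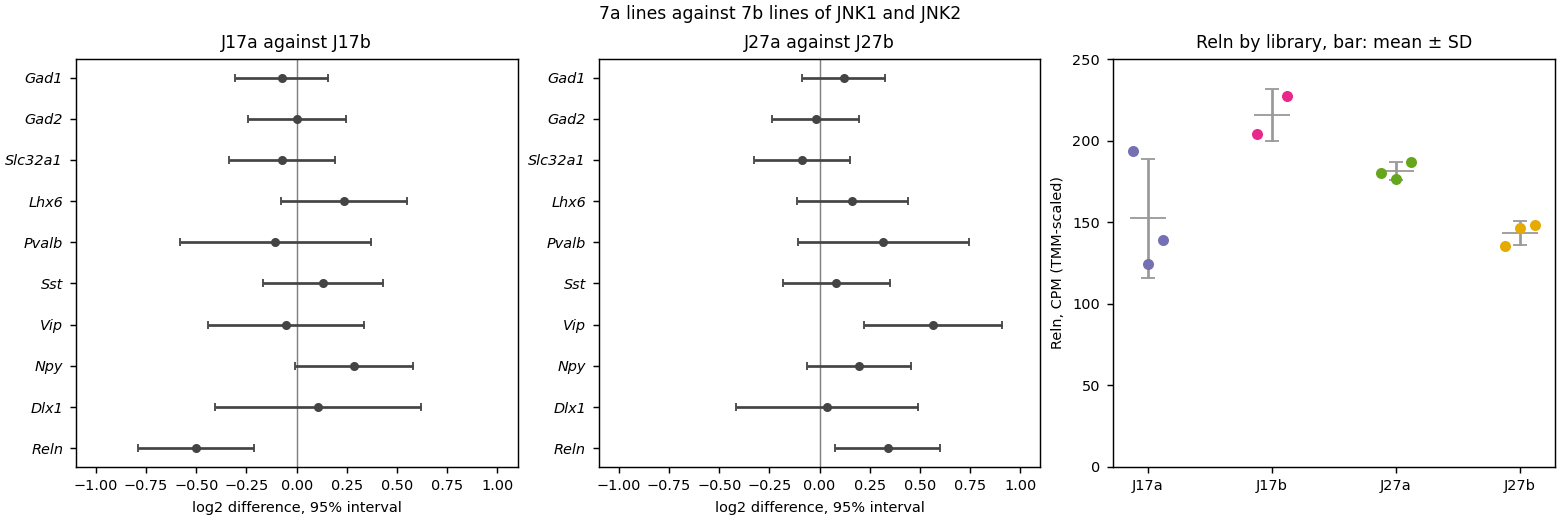
Left and centre, log2 difference of the 10 genes between the 7a and 7b lines of JNK1 and of JNK2 with 95% intervals; right, Reln CPM by library with mean and SD. Reln is the gene whose intervals leave 0 in both comparisons, at -0.50 and 0.34.

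Markers of cerebellar granule cells were high or low together with Reln in some of these libraries but not in all. The 8 markers summed to 1203, 654 and 609 CPM in J17a, 976 and 1255 in J17b, and 1250, 979 and 641 in J27a. The sums were 620, 698 and 698 CPM in J27b, and 820, 940 and 1132 in Wild type. In J1 lf/lf they were 887, 845 and 794 CPM, and in J2 lf/lf 921, 727 and 628 CPM. None of the 8 was at 0 in all libraries. J17a replicate 1 was high for the markers and held 194 CPM of Reln, and its other libraries were low for both. In J17a against J17b the log2 fold change was below 0 for 8 of 8 granule markers (median -0.38), and in J27a against J27b it was above 0 for 7 of 8 (median 0.36). The 7 Purkinje cell markers had medians of -0.43 and 0.44 in the same comparisons. J27a replicate 3 went another way, with 641 CPM of granule markers and 187 CPM of Reln. Cerebellar content as a part of the Reln values was not tested.

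Reln was otherwise higher in J17b than in Wild type, at a log2 fold change of 0.29 (edgeR adjusted p = 0.850). The libraries did not overlap in CPM but did in TPM, and the value was 0.40 (adjusted p = 0.272) without Wild type replicate 3. Reln was lower in J27b than in Wild type, at -0.30 (SE 0.13, edgeR adjusted p = 0.716). J17a against J1 lf/lf gave -0.29 (adjusted p = 0.717) with overlapping libraries, and -0.49 without J17a replicate 1 but -0.16 without J17a replicate 2. J17b against J1 lf/lf gave 0.22 and J27a against J2 lf/lf 0.21, both without overlap, with adjusted p of 1.000 and 0.858, and J27a against J2 lf/lf was 0.12 without J2 lf/lf replicate 3.

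Genes that work with these 10 gave no called change either. Over the same 12 comparisons, 22 of 360 pairs (6.11%) of 30 other interneuron genes had an unadjusted p under 0.05 and 0 were called. Over all tested genes 5.71% of pairs were under 0.05 in these comparisons, with 4.22% to 7.94% in single ones. The gene of that list with the smallest p in the 7-group test was Ndnf, a marker of neurogliaform interneurons of layer 1 (adjusted p = 0.360). Ndnf averaged 19.4 ± 4.11 CPM in J1 lf/lf, 12.6 ± 0.494 in J2 lf/lf and 14.1 ± 0.973 in Wild type (SD, n = 3 each). Of 11 genes that clear GABA, set the chloride gradient or build the inhibitory postsynapse, 12 of 132 pairs (9.09%) were under 0.05 and 0 called. Slc6a11, the astrocytic GABA transporter GAT3, led that list (adjusted p = 0.678). Slc6a11 averaged 425 ± 19.9 CPM in J27b, 414 ± 85.9 in J1 lf/lf and 336 ± 21.6 in Wild type (SD, n = 3 each).

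The reelin receptors and adaptors gave 3 of 108 pairs (2.78%) under 0.05, beside 5.71% over all tested genes, and 0 called. Dab1, the adaptor that reelin signalling phosphorylates, had the smallest p of the 9 (adjusted p = 0.889) and averaged 102 ± 10.5 CPM in J17a (SD, n = 3), 98.4 ± 5.02 in J17b (SD, n = 2), 102 ± 8.56 in J27a and 93.5 ± 1.55 in J27b (SD, n = 3 each). The 10 receptors of somatostatin, NPY and VIP gave 4 of 120 pairs (3.33%) under 0.05 and 0 called, and the somatostatin receptor Sstr3 had the smallest p of these (adjusted p = 0.874).

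Among the 45 pairs of the 10 genes, 1 had a correlation of log2 CPM over the 20 libraries that passed Benjamini-Hochberg adjustment. Gad1 and Gad2 varied together (Pearson r = 0.744, permutation p = 0.00012, adjusted p = 0.0054; Spearman rho = 0.732, permutation p = 0.00037, adjusted p = 0.0167). Without the 2 libraries farthest from the median of Gad1 r was 0.604, and on deviations from the group means it was 0.793. Lhx6 and Sst had r = 0.575 (rho 0.608) and Slc32a1 and Vip r = -0.561 (rho -0.553), each with an adjusted permutation p of 0.143. The median over the 45 pairs was 0.13, with 31 positive and 14 negative.

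The genes most like each of the 10 were taken from 13088 others over the 20 libraries, by Pearson r. They are a description only, since the libraries differed in depth and in markers of brain regions. For Gad1 they were Syde2 (0.851), Sephs1 (0.850) and Ptprm (0.806), and for Slc32a1 Vars (0.877), Rpl18 (0.871) and Ckb (0.865). Pvalb was most like Cerk (0.857), Sst most like Ccrn4l (0.849), Vip most like Pdk1 (0.833), Gad2 most like Ssr3 (0.821), Lhx6 most like Rapgef2 (0.784) and Npy most like Mrps33 (0.758). For Dlx1 they were Sp8 (0.786), Tshz1 (0.721) and Doc2g (0.706), all 3 on the olfactory bulb lists, and Sp8 also among the 30 other interneuron genes. The Spearman rho of Dlx1 was 0.528 with Sp8, 0.567 with Tshz1 and 0.265 with Doc2g. J1 lf/lf replicates 2 and 3 lie at the top of Dlx1 and of all 3. For Reln they were Hpcal1 (0.836), Tiam1 (0.826) and Cbln1 (0.820), the last a granule cell marker of the cerebellum.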

How the data were processed

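Brain RNA was enriched for poly(A) and read in pairs on a NovaSeq6000, per the labels. The authors deposited an estimated count and a TPM value for each gene and library. Both were made with RSEM after cutadapt on mm10, per the submitters' processing notes. Program versions, gene models and any strand setting are not given in these sources. RSEM divides reads shared by several genes, and 4.11% of the estimated counts of tested genes were not whole.

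Rounded counts went into edgeR 4.0.16 under R 4.3.3, with TMM factors, filterByExpr and robust quasi-likelihood fits with all 20 libraries in 1 fit and a mean per group (biological coefficient of variation 0.12). P-values were two-sided and adjusted by Benjamini-Hochberg within a comparison over 16063 genes. Correlations between the 10 genes used 100000 permutations. Of the 10 genes, a fold is printed where the unadjusted p is under 0.05 or the groups' libraries do not overlap in CPM, and other pairs are given by range. A lack of overlap has no share over all genes beside it. From each other pathway list the gene with the smallest p in the 7-group test is named. Counts and TPM were matched to 20 samples by column name. No 2 replicates were close enough to be 1 library deposited again.

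The genes, lists, motifs and comparisons were chosen with earlier results of these data known. Alternatives were DESeq2 1.42.0 size factors and tests, no filter on low counts, fits on a comparison's own groups, a replicate block, limma 3.58.1 on log2(TPM + 1) and log2(TPM + 0.1), Rn45s left out, and each library left out in turn. The edgeR test was tested on simulated data. Coordinates are from GENCODE on mm10 and promoters from RefSeq on GRCm38.p6.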

Additional observations from a re-analysis of the deposited data

Results flagged for a closer look

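Reln differed in opposite directions in the isoform lines of the 2 kinases. The log2 difference of J17a minus J17b set against J27a minus J27b was -0.84 (SE 0.19), and its edgeR adjusted p over all genes was 0.321, so it did not pass the threshold. Reln was flagged because the CPM of the lines did not overlap in either comparison, in opposite directions, so that separation is no added evidence. The markers of cerebellar granule cells had medians of -0.38 and 0.36 in the same 2 comparisons, and their part in the Reln difference was not tested.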

How the results depend on the processing

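The 13 counts of called interneuron genes were all 0 in the fit as reported, and under the alternatives 203 recomputed counts were 0 and 4 were 1. The 7-group count was 1 with DESeq2 (Reln, adjusted p = 0.0268) and 1 without J17a replicate 1 (Reln, adjusted p = 0.0328). Over leaving out each library it ran from 0 to 1, as did that of J17a against J17b (1 without J17a replicate 1). J27a against J27b had 1 with only its own groups in the fit (Reln). The Reln difference between the 2 contrasts of 7a and 7b was -0.84 with DESeq2 (adjusted p = 0.0292) and ran from -1.05 (without J17a replicate 1, adjusted p = 0.00832) to -0.71 with single libraries left out. With J1 lf/lf replicates 2 and 3 left out, chosen after seeing the data as the highest in Dlx1, which fixes the direction, Dlx1 changed sign in J1 lf/lf against Wild type (-0.16), J17a against J1 lf/lf (0.18) and J17b against J1 lf/lf (0.0746). With single libraries left out, Dlx1 in J1 lf/lf against Wild type ran from 0.25 to 0.78. The cause of these changes was not tested. Over all genes, the 7-group test called 14 as reported, 2 at the lowest and 231 at the highest (DESeq2), J17b against Wild type 4, with 0 to 54 over the alternatives, and J27a against J27b 0, with up to 125 with only its own groups in the fit. Of the recomputed folds, 362 kept their direction and their side of the threshold, 4 passed it (all Reln) and 3 reversed (all Dlx1). Replicate numbers did not pair the libraries: 57 same-numbered pairs had a median correlation of -0.01, and 4 of 20 libraries correlated best with their own number. With the replicate block 0 of the 10 interneuron genes were called in each of the 13 tests, and Reln in J17a against J17b stood at -0.50 (adjusted p = 0.686). Where J17b or J1 lf/lf was left with 1 library, that one was assumed to vary like the other groups. Dlx1 and Lhx6, the lowest of the 10, rest on 245 to 820 and 327 to 765 estimated counts per library. In J27b against Wild type the SE was 0.21 for Dlx1 and 0.13 for Lhx6, beside 0.20 for Pvalb and 0.13 for Sst.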
